A study of Homo sapiens with 12 samples.

Results

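Polyamine metabolism is described here through 10 genes, ODC1, AMD1, SRM and SMS of synthesis, OAZ1, OAZ2 and AZIN1 of the antizyme circuit, and SAT1, SMOX and PAOX of catabolism, out of 59577 genes in the deposited table. Each symbol matched 1 row. The genes were selected on the measured TPM of hyperoxia against normoxia, in that the group was proposed with the results of this contrast known. The cells were H1299, an established human lung carcinoma line. They were kept for 24 h under hyperoxia (60% O2, 5% CO2, 35% N2; n = 6) or under normoxia (21% O2, 5% CO2, 74% N2; n = 6), and bulk RNA was sequenced. Values are TPM, transcript abundances per length and scaled to a common total. Because the contrast of these groups was known when the genes were proposed, their fold changes are a description and carry no test. Where a member is said to pass or to lose its call, its values are only placed against the rule used for all genes. Genes around the pathway that are not among the 10 are given with their tests. That list was also written with earlier results of these samples known. Its p-values are therefore read as a description as well.

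The polyamines putrescine, spermidine and spermine are small organic cations that bind RNA, DNA and chromatin and are needed for growth. Ornithine decarboxylase (ODC1) makes putrescine, and spermidine synthase (SRM) and spermine synthase (SMS) extend it with aminopropyl groups that depend on S-adenosylmethionine decarboxylase (AMD1). Antizymes (OAZ1, OAZ2) bind ornithine decarboxylase and deliver it to the proteasome, and the antizyme inhibitor AZIN1, an ornithine decarboxylase homologue without enzyme activity, sequesters the antizymes. Spermidine/spermine acetyltransferase (SAT1) marks polyamines for export or for oxidation by the peroxisomal oxidase PAOX, while SMOX oxidises spermine directly; both oxidases release hydrogen peroxide.

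Each sample summed to between 996138 and 998797 TPM, a unit from which the number of reads cannot be recovered; sequencing depth is therefore unknown. Nothing in the labels tells whether samples within a group were grown as separate cultures, so the p-values reflect variation among these samples alone, and that variation may be technical. Of 6 epithelial markers 3 reached a mean of 1 TPM, led by the keratins KRT18 and KRT8, and EPCAM and CDH1 stayed below 1 TPM. None of 5 lung epithelial markers, none of 3 endothelial and none of 4 blood markers reached a mean of 1 TPM, with the surfactant genes SFTPA1 and SFTPC at 0 in all 12 samples. Of 4 fibroblast markers COL1A1 alone did, at 0.992 TPM in hyperoxia and 1.17 TPM in normoxia. Normoxia replicates 1 to 3 may have been a little apart from replicates 4 to 6. The correlation of their deviations from the group mean ran from -0.34 to -0.16 between these sets. It ran from -0.16 to 0.01 within the first set and from -0.22 to -0.07 within the second. Over the hyperoxia pairs it ran from -0.27 to -0.12, so these ranges overlap. Deviations from the mean of the same samples correlate negatively even without structure, so negative values alone do not set samples apart. As a precaution, fits with normoxia replicates 1 to 3 only are given where they change a result. No fit with normoxia replicates 4 to 6 only was run.

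The promoter stretches of the 2 members with higher levels in hyperoxia, SAT1 and ODC1, were taken from RefSeq on GRCh38.p14. Each is the 250 bases before the transcription start, with GC boxes (GGGCGG) and CCAAT boxes in capitals on either strand. The SAT1 stretch is chrX:23782923-23783172 on the plus strand and the ODC1 stretch is chr2:10448328-10448577 on the minus strand.
SAT1 promoter: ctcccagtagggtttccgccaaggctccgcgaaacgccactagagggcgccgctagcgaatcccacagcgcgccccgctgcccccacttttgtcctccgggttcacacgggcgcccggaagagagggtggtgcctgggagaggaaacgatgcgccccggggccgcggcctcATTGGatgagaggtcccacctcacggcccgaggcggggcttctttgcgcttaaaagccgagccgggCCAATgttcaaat
ODC1 promoter: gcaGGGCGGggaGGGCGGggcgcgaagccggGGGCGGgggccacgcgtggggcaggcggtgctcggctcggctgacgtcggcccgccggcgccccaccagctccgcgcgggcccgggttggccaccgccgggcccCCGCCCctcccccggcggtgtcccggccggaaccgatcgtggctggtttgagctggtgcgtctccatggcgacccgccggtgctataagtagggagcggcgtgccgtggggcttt
The SAT1 stretch held 2 CCAAT boxes and no GC box, and the ODC1 stretch held 4 GC boxes and no CCAAT box. Over 35116 such RefSeq stretches, 42.64% held a GC box and 32.01% a CCAAT box. Neither stretch held an E-box (CACGTG, in 6.34% of all stretches), an antioxidant response element core (TGACNNNGC, in 10.91%) or an AP-1 site (TGANTCA, in 6.57%), all searched on both strands. No match says only that these letters are not in these windows. Among the 7 members with a RefSeq stretch, SRM held an E-box and OAZ2 an AP-1 site, and the stretch before a second RefSeq start of ODC1 held an E-box, 29 bases before that start.

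ODC1 is a textbook target of MYC, through a pair of E-boxes in its first intron. Both lay in the stretch at chr2:10447992-10448051 (minus strand), with the E-boxes in capitals, 286 and 320 bases downstream of the start used above. No exon of a GENCODE 29 ODC1 transcript overlapped this stretch. The first of the pair is the E-box found 29 bases before the second RefSeq start, and the other lies downstream of that start.
ODC1 E-boxes: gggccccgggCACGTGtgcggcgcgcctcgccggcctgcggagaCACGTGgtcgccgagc
The antizyme genes are controlled at translation, where polyamines make ribosomes shift frame at a stop codon, so their RNA level does not report the amount of full-length antizyme. The site is shown from GENCODE 29 transcripts of OAZ1 on chromosome 19 and OAZ2 on chromosome 15, with the codon before the stop and the stop itself in capitals; 29 of the 30 bases were identical.
OAZ1 frameshift site: cctcggtggtgcTCCTGAtgcccctcaccc
OAZ2 frameshift site: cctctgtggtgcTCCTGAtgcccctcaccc

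SAT1 (ENSG00000130066), the rate-limiting enzyme of polyamine catabolism, had the largest fold change of the 9 members tested. Its hyperoxia samples ran from 64.9 TPM through a median of 70.0 to 72.7 TPM, and its normoxia samples from 30.5 TPM through a median of 33.0 to 34.2 TPM. Every hyperoxia sample lay above every normoxia sample, and the spread within either group was small against the gap between them. SAT1 averaged 69.4 ± 3.08 TPM in hyperoxia and 32.6 ± 1.70 TPM in normoxia (SD, n = 6 each), a ratio of 2.13. On the log2(TPM + 1) scale the difference was 1.07 (SE 0.043), which ranked 40 of 14520 tested genes from the top. In bulk RNA a level per cell and a shift in which cells or cell cycle phases are present cannot be told apart. SAT1 RNA can also carry an extra exon that leads to its decay when polyamines are low; the gene-level values do not separate the 9 transcripts that GENCODE 29 lists for it.

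The spermine oxidase SMOX (ENSG00000088826) showed no such gap. It ran from 11.4 TPM through a median of 15.5 to 18.8 TPM in hyperoxia and from 11.6 TPM through a median of 14.9 to 16.6 TPM in normoxia. The groups overlapped, although 3 of the 6 hyperoxia samples lay above every normoxia sample. Its coefficient of variation, 20.6% in hyperoxia and 14.0% in normoxia, was the highest of the 9 tested members in both groups. The hyperoxia replicates 1, 2 and 3 had 14.2, 11.4 and 11.98 TPM and replicates 4, 5 and 6 had 17.95, 16.8 and 18.8 TPM. The log2 difference was 0.0485 (SE 0.13). Even a change larger than this SE could have gone undetected here.

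PAOX (ENSG00000148832), the oxidase that acts on acetylated polyamines, was close to the bottom of the range. It averaged 0.217 ± 0.178 TPM in hyperoxia and 0.267 ± 0.169 TPM in normoxia (SD, n = 6 each), with 1 hyperoxia sample listed at 0. It was below the minimum mean of 1 TPM and was not tested. Within catabolism, the TPM of SAT1 exceeded that of the oxidases in every sample. It was 4.75 ± 1.02 times the SMOX value in hyperoxia and 2.29 ± 0.404 times in normoxia (SD, n = 6 each). This comparison between genes rests on gene lengths that were not checked.

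**Figure D1:**
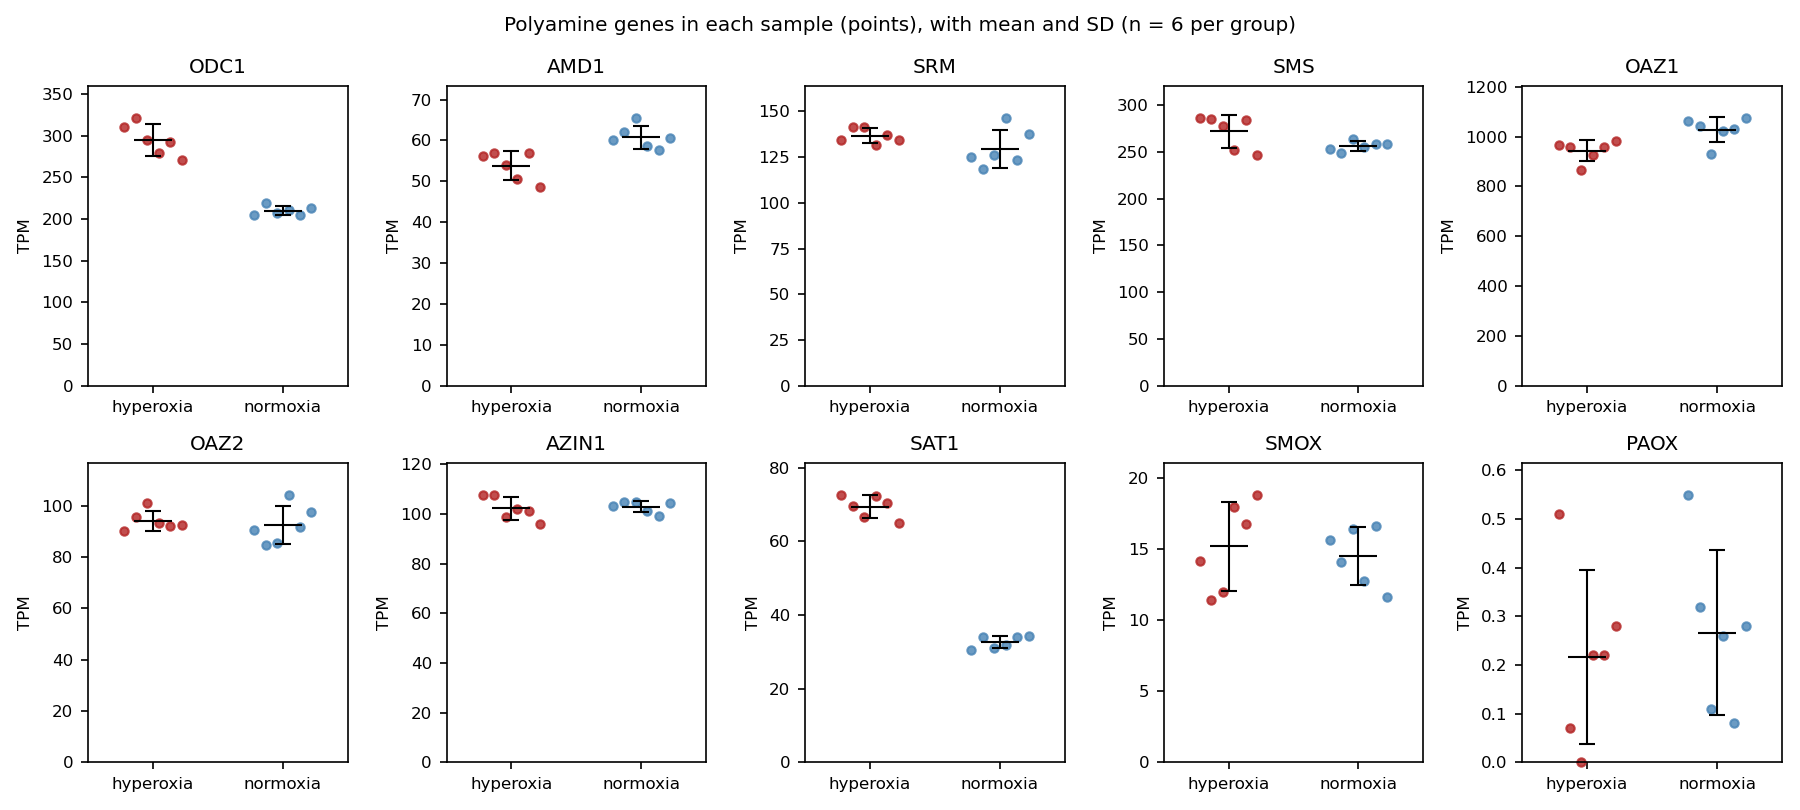
TPM of the 10 polyamine genes in each sample (points; vertical axis in TPM from 0), with mean and SD bars, for hyperoxia on the left and normoxia on the right of each panel (n = 6 each). SAT1 and ODC1 lie higher in every hyperoxia sample, AMD1 lies lower, and the groups of the other 7 genes overlap.

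ODC1 (ENSG00000115758), the rate-limiting enzyme of synthesis, was higher in hyperoxia as well. Its hyperoxia samples ran from 271 TPM through a median of 294 to 321 TPM, and its normoxia samples from 204 TPM through a median of 209 to 219 TPM. The groups did not overlap. ODC1 averaged 295 ± 18.8 TPM in hyperoxia and 209.8 ± 5.42 TPM in normoxia (SD, n = 6 each), a ratio of 1.41. The log2 difference was 0.49 (SE 0.040), which ranked 279 of 14520 genes from the top. In TPM the gain of ODC1, 85.0 TPM, was larger than that of SAT1, 36.8 TPM, while its ratio was smaller.

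AMD1 (ENSG00000123505), which supplies the aminopropyl donor for spermidine and spermine, was lower in hyperoxia. It ran from 48.6 TPM through a median of 55.0 to 57.0 TPM in hyperoxia and from 57.6 TPM through a median of 60.4 to 65.5 TPM in normoxia. The highest hyperoxia sample lay just under the lowest normoxia sample. AMD1 averaged 53.9 ± 3.54 TPM in hyperoxia and 60.8 ± 2.79 TPM in normoxia (SD, n = 6 each), a log2 difference of -0.17 (SE 0.047). Its AMD1P1 to AMD1P4 pseudogene rows were at or below 0.41 TPM in every sample, and adding them moved the difference by less than its SE.

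Neither aminopropyl transferase passed the threshold with all 12 samples. SRM (ENSG00000116649) ran from 131 TPM through a median of 136 to 141 TPM in hyperoxia and from 119 TPM through a median of 125 to 146 TPM in normoxia. SMS (ENSG00000102172) ran from 246 TPM through a median of 281 to 286 TPM in hyperoxia and from 249 TPM through a median of 256 to 264 TPM in normoxia. Both overlapped between the groups, with the lowest SMS value of all in a hyperoxia sample. The log2 difference was 0.082 (SE 0.048) for SRM and 0.083 (SE 0.040) for SMS. SRM crossed the threshold as higher in 1 of 23 alternatives, with normoxia replicates 1 to 3 only, at 0.15. SMS did so in 1 of 22, without hyperoxia replicate 6, at 0.11. Nothing is read from these crossings. The ratio of SMS to SRM was 1.99 ± 0.106 in hyperoxia and 1.99 ± 0.149 in normoxia (SD, n = 6 each).

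OAZ1 (ENSG00000104904) had the highest level of the 10 genes. Its hyperoxia samples ran from 867 TPM through a median of 959 to 981 TPM, and its normoxia samples from 931 TPM through a median of 1037 to 1074 TPM. The groups overlapped through a single normoxia library, replicate 3 at 931 TPM. Hyperoxia replicate 3 was likewise the lowest of its group, at 867 TPM with the next at 925 TPM. With the replicate block the SE of the OAZ1 difference was 0.018, although same-numbered samples did not deviate together over all genes. OAZ1 averaged 943 ± 41.4 TPM in hyperoxia and 1028 ± 51.0 TPM in normoxia (SD, n = 6 each), a log2 difference of -0.12 (SE 0.038). The size of the difference moved little, from -0.15 to -0.10 over the 23 alternatives, but its call was borderline and was lost when any 1 of 10 of the 12 samples was left out.

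OAZ2 (ENSG00000180304), the second antizyme, ran from 90.2 TPM through a median of 92.7 to 101 TPM in hyperoxia and from 84.7 TPM through a median of 91.1 to 104 TPM in normoxia. The hyperoxia range lay within the normoxia range. The antizyme inhibitor AZIN1 (ENSG00000155096) ran from 95.9 TPM through a median of 102 to 108 TPM in hyperoxia and from 99.2 TPM through a median of 104 to 105 TPM in normoxia. Here the normoxia range lay within the hyperoxia range. Their log2 differences were 0.030 (SE 0.050) for OAZ2 and -0.011 (SE 0.034) for AZIN1, the 2 smallest in size among the 9 tested members.

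In the fit across all genes (limma on log2(TPM + 1), Benjamini-Hochberg adjusted p under 0.05), 2 of the 9 tested members passed as higher (SAT1, ODC1), 2 as lower (AMD1, OAZ1) and 5 did not pass. The same rule called 17.3% of all 14520 tested genes, 11.7% (1698) as higher and 5.63% (818) as lower. Median-of-ratios scaling of the TPM called 1279 higher and 1277 lower and quantile normalisation 1437 and 1208, with no change of a member's call. The groups did not overlap for 2 members higher and 1 lower, against 8.78% of tested genes, 6.2% higher and 2.58% lower. Since the genes were proposed with this contrast known, nothing is read from these shares. The median log2 difference was 0.0485 over the tested members and 0.0265 over all tested genes. As a description of the values, the log2 difference ran from 1.04 to 1.10 for SAT1 and from 0.46 to 0.51 for ODC1 over 22 alternatives. AMD1 lost its call in 3 of 23, namely with no filter on low values, without normoxia replicate 2 (-0.17) and with normoxia replicates 1 to 3 only (-0.21). OAZ1 lost it in 14 of 23.

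**Figure D2:**
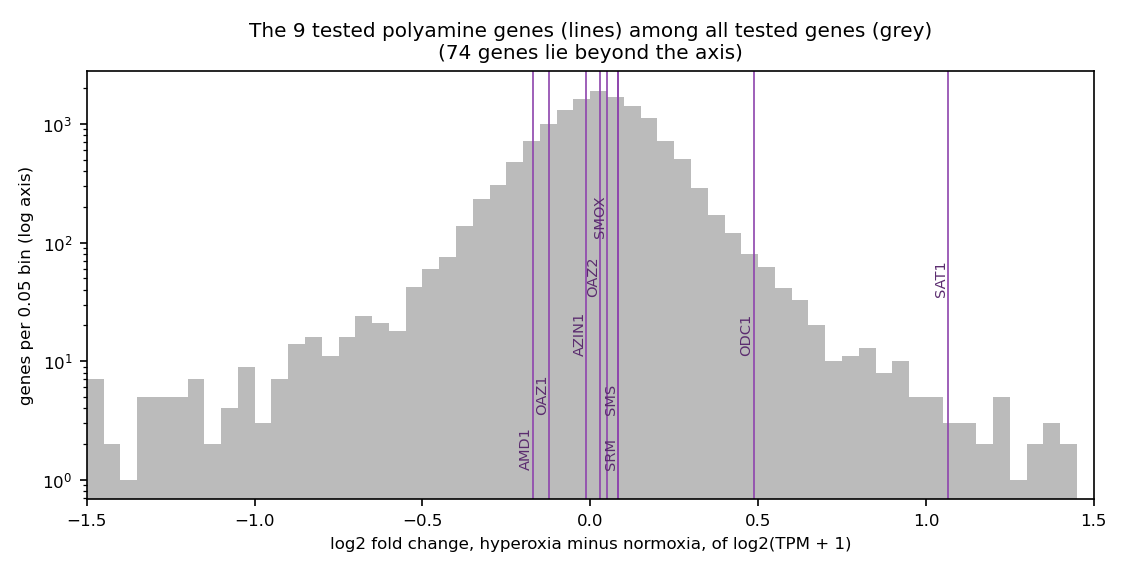
Log2 difference between hyperoxia and normoxia for all tested genes (grey bars, number of genes per bin of 0.05 on a log axis) with the 9 tested polyamine genes as lines. The axis is limited to 1.5 either way, and 74 genes lie beyond it. SAT1 at 1.07 and ODC1 at 0.49 lie in the upper tail, and the other 7 genes lie between -0.17 and 0.083.

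In the authors' deposited table, SAT1 was the member marked as significant, with a fold change of 2.12, and the other 9 were not marked. The same table gives a fold change of 1.39 for ODC1, 0.861 for AMD1 and 0.902 for OAZ1. It marks 357 genes in all, while the limma rule used here called 2516, so the mark and this rule are not the same criterion. The authors' criterion was not examined, and a missing mark is not read as a failed test. None of the 10 rows was among the 78 whose deposited values disagree with each other.

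TPM are per length, so levels can also be set side by side between genes, as far as the lengths used hold. How these TPM were computed is not known. The deposited gene lengths ran from 1065 bases for SAT1 to 6589 bases for AMD1. These lengths were not checked, so the order below describes the deposited TPM only. In hyperoxia the order of mean TPM was OAZ1, ODC1, SMS, SRM, AZIN1, OAZ2, SAT1, AMD1, SMOX and PAOX. In normoxia it was OAZ1, SMS, ODC1, SRM, AZIN1, OAZ2, AMD1, SAT1, SMOX and PAOX. The exchanges were therefore of ODC1 with SMS and of SAT1 with AMD1. The ranges of AZIN1 and OAZ2 overlapped in both groups, as did those of ODC1 and SMS in hyperoxia, and no other neighbours in either order overlapped. The 10 genes together summed to 1981 ± 58.8 TPM in hyperoxia and 1926 ± 52.8 TPM in normoxia (SD, n = 6 each), about as much apart as the spread of a group.

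The balance between members is described by ratios within a sample, which a common scaling factor does not alter. SAT1 relative to ODC1 was 0.236 ± 0.0144 in hyperoxia and 0.156 ± 0.00687 in normoxia (SD, n = 6 each). No hyperoxia sample was below 0.217 and no normoxia sample above 0.166, so the catabolic enzyme gained more RNA than the synthetic one relative to its level in normoxia. OAZ1 relative to ODC1 was 3.21 ± 0.253 in hyperoxia and 4.90 ± 0.252 in normoxia (SD, n = 6 each). AZIN1 relative to ODC1 was 0.347 ± 0.0117 in hyperoxia and 0.491 ± 0.0114 in normoxia (SD, n = 6 each). AMD1 relative to ODC1 was 0.183 ± 0.00618 in hyperoxia and 0.290 ± 0.0137 in normoxia (SD, n = 6 each). None of these 4 ratios overlapped between the groups. All 4 have ODC1 as denominator, whose own groups did not overlap, so they are not separate results. For AZIN1, with a log2 difference of -0.011, the ratio restates the higher ODC1 level. How often such ratios are apart for other genes was not tested.

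**Figure D3:**
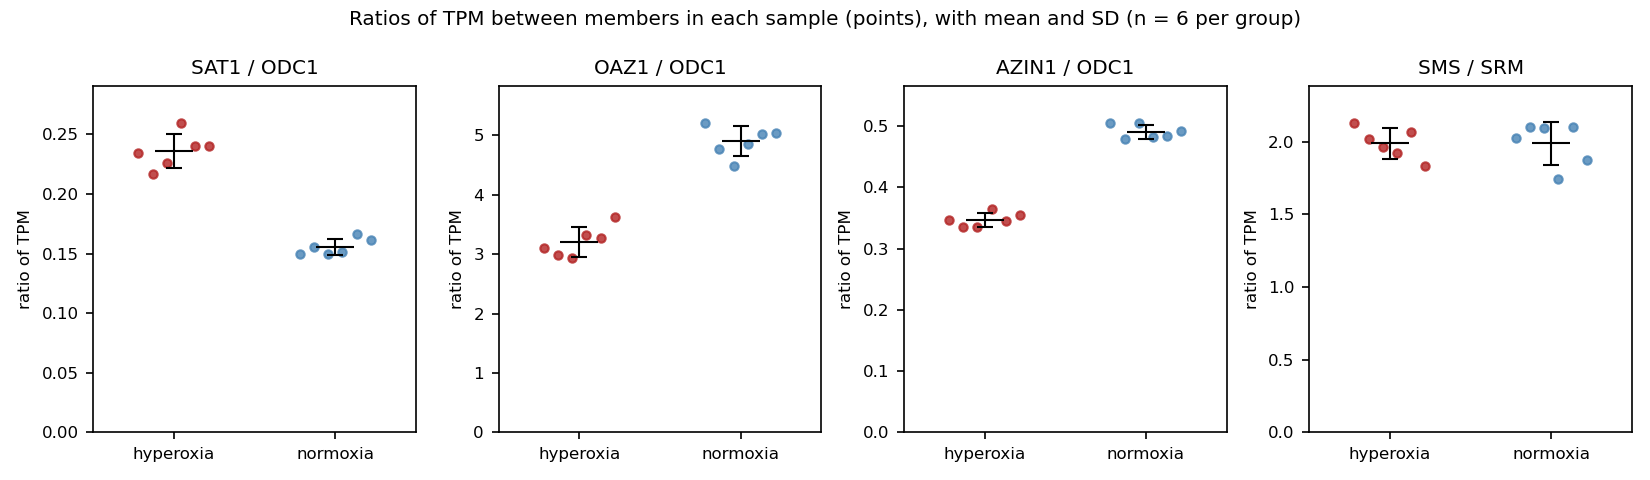
Ratios of TPM between members in each sample (points; vertical axes from 0), with mean and SD bars, for hyperoxia on the left and normoxia on the right of each panel (n = 6 each). The groups are apart for SAT1 over ODC1 (0.236 and 0.156), OAZ1 over ODC1 (3.21 and 4.90) and AZIN1 over ODC1 (0.347 and 0.491). They overlap for SMS over SRM. The ratios that are apart share the denominator ODC1, which is itself apart between the groups.

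Of 41 further genes around the pathway, 27 were tested. The list was written by role, with earlier results of these samples known, so its counts and adjusted p-values are read as a description. Of the 27 genes 7 rose, 3 fell and 17 did not pass. MYC is 1 of those that fell, but its deposited values disagree with each other, and leaving it out made 7 and 2 of 26. Over all tested genes 17.3% were called, and the median log2 difference was 0.1146 for the list and 0.0265 for all genes. The 14 untested genes had means below 1 TPM, and 3 of them, OTC, SLC22A2 and SLC22A3, were listed at 0 in all 12 samples.

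Both tested genes of ornithine supply and use rose. ARG2, the mitochondrial arginase that makes ornithine, ran from 15.2 TPM through a median of 16.5 to 17.8 TPM in hyperoxia and from 8.15 TPM through a median of 9.91 to 10.8 TPM in normoxia. The groups did not overlap, and the log2 difference was 0.70 (SE 0.067, limma, Benjamini-Hochberg adjusted p = 2.12e-05). OAT, which converts ornithine towards glutamate and proline, averaged 48.1 ± 1.45 TPM in hyperoxia and 42.3 ± 0.969 TPM in normoxia (SD, n = 6 each; log2 difference 0.18, limma, Benjamini-Hochberg adjusted p = 0.00207). The cytosolic arginase ARG1 averaged below 1 TPM.

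In the methionine cycle and the salvage of methylthioadenosine, the by-product of spermidine and spermine synthesis, 1 of 8 tested genes rose and 1 fell. MAT2A, which makes the S-adenosylmethionine that AMD1 uses, fell to 165 ± 9.65 TPM in hyperoxia, against 192 ± 9.60 TPM in normoxia (SD, n = 6 each; log2 difference -0.21, limma, Benjamini-Hochberg adjusted p = 0.00504). The MAT2A groups overlapped, with the highest hyperoxia sample at 180 TPM and the lowest normoxia sample at 178 TPM. With normoxia replicates 1 to 3 only, MAT2A did not pass (-0.20, limma adjusted p = 0.0550, where all alternatives ran from 2.15e-04 to 0.0550). ADI1, the acireductone dioxygenase of the salvage pathway, rose with a log2 difference of 0.34 (SE 0.049; adjusted p = 5.92e-04 from limma). MTAP, which starts the salvage, measured 33.5 ± 3.86 TPM in hyperoxia and 32.1 ± 1.33 TPM in normoxia (SD, n = 6 each).

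Spermidine is the source of hypusine, the modified lysine of the translation factor eIF5A. DOHH, the hydroxylase that completes hypusine, rose to 23.5 ± 1.63 TPM in hyperoxia, against 19.0 ± 1.35 TPM in normoxia (SD, n = 6 each; log2 difference 0.29, limma, Benjamini-Hochberg adjusted p = 0.00362). DHPS, which starts the modification, and EIF5A, its substrate, had log2 differences of 0.0095 (SE 0.068) and -0.0089 (SE 0.033) and did not pass.

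Among 5 tested transport genes 2 rose and 1 fell. ATP13A3, a P-type ATPase linked to polyamine uptake, rose with a log2 difference of 0.23 (SE 0.051; adjusted p = 0.00736 from limma), and SLC47A1, an exporter of organic cations, rose with a log2 difference of 0.40 (SE 0.089; adjusted p = 0.00781 from limma). SLC3A2, the heavy chain of amino acid transporters that has been linked to polyamine export, ran from 188 TPM through a median of 198 to 214 TPM in hyperoxia and from 233 TPM through a median of 280.3 to 334 TPM in normoxia. The groups did not overlap, and the fall of SLC3A2 was a log2 difference of -0.49 (SE 0.068; adjusted p = 4.55e-04 from limma).

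Among relatives of the members, SAT2, OAZ3 and AZIN2 did not pass limma's test (adjusted p = 0.229, 0.429 and 0.548 in that order). SAT2, a relative of SAT1, averaged 25.8 ± 1.56 TPM in hyperoxia and 23.8 ± 2.17 TPM in normoxia (SD, n = 6 each; log2 difference 0.11, SE 0.062). OAZ3 and AZIN2 had log2 differences of 0.27 (SE 0.21) and 0.21 (SE 0.21). HDAC10, a polyamine deacetylase, and ALDH9A1, an aminoaldehyde dehydrogenase, did not pass either, at -0.16 (SE 0.12) and 0.11 (SE 0.038).

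Of the regulators of ODC1, the quinone reductase NQO1, whose protein binds ornithine decarboxylase and slows its breakdown, rose with a log2 difference of 0.92 (SE 0.031; adjusted p = 8.49e-10 from limma). MAX, the partner of MYC, did not pass at 0.18 (SE 0.091). The sample columns gave MYC 62.5 ± 18.5 TPM in hyperoxia and 152 ± 12.3 TPM in normoxia (SD, n = 6 each; log2 difference -1.31, limma, Benjamini-Hochberg adjusted p = 1.73e-04). The deposited values of the MYC row disagree with each other, so nothing is drawn from its direction. Whether MYC bears on ODC1 here was not tested.

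**Figure D4:**
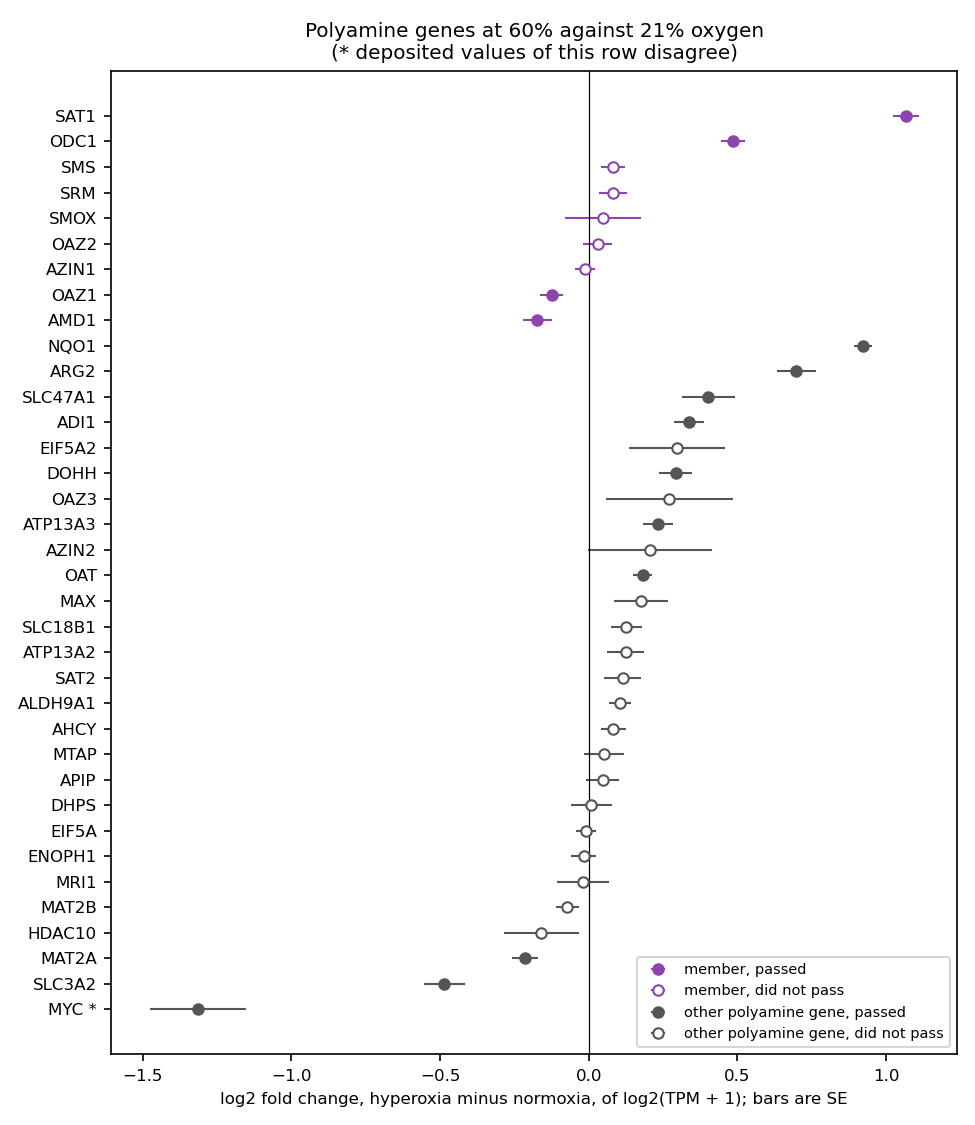
Log2 difference between hyperoxia and normoxia on the log2(TPM + 1) scale, with SE bars, for the 9 tested members (purple) and the 27 other tested polyamine genes (grey); filled points passed limma's adjusted threshold of 0.05 and open points did not. SAT1, NQO1, ARG2 and ODC1 lie furthest to the right, and SLC3A2 and MYC (whose deposited values disagree) furthest to the left.

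The genes whose pattern over the 12 samples was closest to that of SAT1 and ODC1 were found by the root mean square difference of their centred log2 values. For SAT1 they were FTL (ferritin light chain) at 0.075, NQO1 at 0.086, GCLM (glutathione synthesis) at 0.092, SQSTM1 (an autophagy receptor) at 0.12 and PPP1R15A (a phosphatase subunit that restores translation) at 0.12, against a median of 0.54 over 12687 genes. FTL averaged 2937 ± 119 TPM in hyperoxia and 1480 ± 39.1 TPM in normoxia (SD, n = 6 each), with a log2 difference of 0.99 beside 1.07 for SAT1. For ODC1 they were the zinc finger gene ZNF829 at 0.047, OSER1 at 0.049, NOLC1 (a nucleolar phosphoprotein) at 0.050, CCN2 (a secreted matrix-associated protein) at 0.056 and MRPL32 (a mitochondrial ribosomal protein) at 0.064, against a median of 0.28. NOLC1 averaged 197 ± 12.4 TPM in hyperoxia and 143 ± 6.26 TPM in normoxia (SD, n = 6 each). The log2 differences of SAT1 and ODC1 (1.07 and 0.49) lie too far apart for these short lists to share a gene. Nothing is therefore read from their having none in common. The measure describes these 12 samples and includes the group difference itself.

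**Figure D5:**
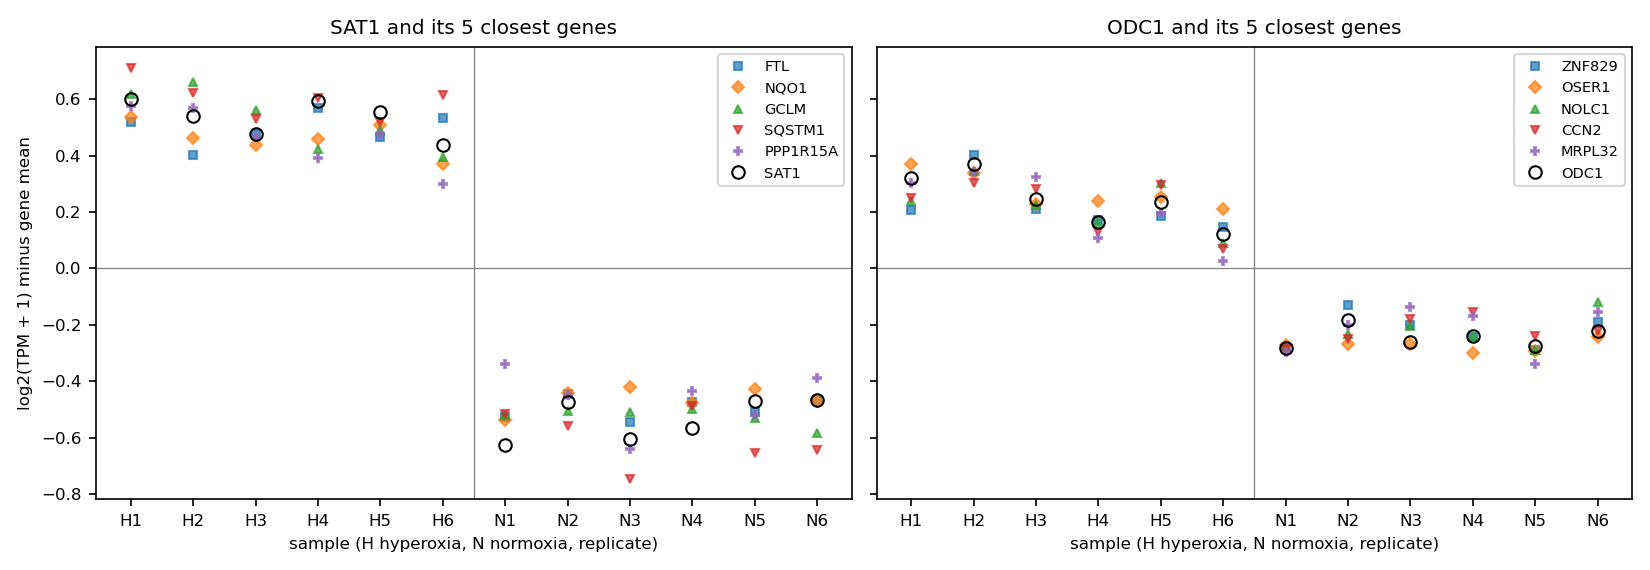
Log2(TPM + 1) minus the gene's mean (vertical axis) in the 6 hyperoxia samples (left of the line) and the 6 normoxia samples (right), for SAT1 and ODC1 (open circles) and the 5 genes closest to each. All 6 genes of a panel lie above 0 in each hyperoxia sample and below 0 in each normoxia sample.

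Few rows overlap a member in GENCODE 29, and whether the authors' counting used strand is not stated in any label. The largest such row with a value in most samples was AZIN1-AS1, on the strand opposite to AZIN1, at 1.82 TPM in hyperoxia and 1.91 TPM in normoxia. SNORA80B, a small nucleolar RNA within ODC1, was listed above 0 in 1 hyperoxia sample, at 21.5 TPM, and at 0 in the other 11. AL360181.3, on the same strand as PAOX, was at 0.825 TPM in hyperoxia and 0.805 TPM in normoxia, above PAOX itself, so the PAOX level is uncertain.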

How the data were processed

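The authors deposited one table with TPM per gene for 12 samples, per the file headers; the name of the table gives another unit. It also holds the authors' mean TPM, their linear fold ratio, their log2 fold change and their p-values. The submitters' processing notes name HTSeq 0.9.1 and edgeR 3.16.5, with no role given, and list the mouse build mm9 although the gene identifiers are human. The aligner, the annotation and the way TPM were computed were not given in the sources used here. Different library kits are named by the labels' protocols and the design text. Groups and replicate numbers came from the sample titles.

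Genes with a mean of at least 1 TPM over the 12 samples were tested with limma 3.58.1 in R 4.3.3 (eBayes with trend) on log2(TPM + 1). Two-sided p-values were adjusted by Benjamini-Hochberg across 14520 genes and called under 0.05. This scale understates the change of low genes. The limma step was tested on simulated data. Members and gene lists were chosen with earlier results of these data known. Named genes are all members, each called gene of the further list with examples of the rest, and the 5 closest genes to SAT1 and ODC1. A row was said to disagree when its log2 fold change differed from the log2 of its fold ratio by over 1e-06 or its mean from that of the columns by over 1e-05 TPM. Same-numbered samples did not deviate together (correlations -0.12 to 0.02), so the numbers were not taken as pairs. Alternatives changed the pseudocount, filter, scaling, moderation, test, block, samples and rows. The result for 1 further gene is not reported here.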

Additional observations from a re-analysis of the deposited data

Results flagged for a closer look

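OAZ1 in normoxia replicate 3 was listed at 931 TPM, while the nearest other normoxia sample had 1022 TPM. This gap took up 0.634 of the group's whole range, above Dixon's critical value for a group of 6 samples. It was the only member and group of the 20 checked to pass that limit, and chance flags about 1 in 20 groups. Without this sample the log2 difference of OAZ1 was -0.15. In the same sample AMD1 and SMS had their highest normoxia values. Hyperoxia replicate 3 had the lowest OAZ1 value of its own group, 867 TPM, with a gap of 0.507 of the range that did not pass the limit.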

How the results depend on the processing

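The count of genes higher in hyperoxia was 1698 and that of genes lower was 818. Without a filter on low values the counts were 918 and 392, and with normoxia replicates 1 to 3 only they were 1000 and 375. Median-of-ratios scaling called 1279 higher and 1277 lower, and quantile normalisation 1437 and 1208. The exact rank-sum test called 1203 and 515. Leaving out 1 sample at a time gave 1330 to 1558 higher and 602 to 934 lower. The replicate block gave 1656 and 889; same-numbered samples did not deviate together, and the block changed no call of a member. Scaling moved the median log2 difference of all genes from 0.0265 to -9e-04. Of the further polyamine genes 6 to 8 were called higher and 2 to 4 lower over 22 alternatives. SRM passed as higher with normoxia replicates 1 to 3 only (0.15), and SMS without hyperoxia replicate 6 (0.11). OAZ1 lost its call with no filter, without the trend, with the rank-sum test, with normoxia replicates 1 to 3 only and without each of 10 samples. The cause of these differences was not tested. Depth is unknown from TPM, so counting error is not given.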
